A study of Mus musculus with 21 samples.

Results

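CpG DNA carries unmethylated CpG motifs, which macrophages sense inside endosomes through the receptor TLR9, and the adaptor MyD88 passes the signal on to inflammatory and interferon genes. The comparison described here set macrophages labelled Lum-/- against wild-type macrophages after CpG. It holds 4 of the 21 libraries of the series. They were chosen by their labelled genotype and treatment, with no measured value used: 2 libraries labelled Lum-/- (CpG alone, and lumican followed by CpG) and 2 wild-type libraries with the same treatments. Each Lum-labelled library thus has a wild-type partner given the same protein.

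Lumican, encoded by Lum, and biglycan, encoded by Bgn, are small leucine-rich proteoglycans, secreted proteins of the extracellular matrix that fibroblasts and other stromal cells make in quantity. Both are known from earlier work as proteins that bind innate immune receptors or their co-receptors on macrophages, CD14 among them. Resident peritoneal macrophages are large F4/80-positive phagocytes that depend on the transcription factor GATA6, and the unelicited peritoneal cavity also holds many B-1 cells and some mast cells.

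All groups were CD11b+ cells on a C57BL/6 background, taken from peritoneal cavities without an eliciting agent, and the labels give 10 mice without saying how these were divided among genotypes or wells. After a night in culture and a change to serum-free medium, cells received CpG at 1 µM for 6 h, or recombinant lumican at 10 µg/mL for 1 h and then CpG. The other groups used here are Lum-labelled and wild-type cells given LPS at 100 ng/mL for 6 h, with or without lumican. Cells labelled Bgn-/- received CpG alone, or biglycan at 10 µg/mL for 1 h and then CpG. Bgn-labelled cells with LPS, with or without biglycan, and wild-type cells with biglycan and then LPS or CpG also entered the fit. Wild-type and Lum-labelled cells given lumican alone, for which the labels state no dose or time, were also read. For every genotype with a given protein and stimulus there is 1 library, so both protein conditions stood in as repeats of a genotype. The p-values thus set a label difference against the spread of wells around a model. In that model an added protein shifts each genotype alike under a stimulus. That spread holds differences between wells and any protein effect that differs between genotypes. Genotype and cell preparation cannot be told apart.

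The deposited values are TPM (a relative transcript level per transcript length, scaled to the same total in each library), summed here per gene. Depth, estimated from the spacing of low values, was 19.3 and 18.7 M (mega) reads in the Lum-labelled libraries, against 21.7 and 16.9 M reads in the wild-type ones. The 260/230 ratio of the RNA, a measure of purity given in the labels, was 0.13 in the Lum-labelled CpG library and 2.7 in the Lum-labelled lumican-CpG library, against 3.23 and 1.81 in the wild-type libraries. Its part in the results was not tested. Defining macrophage markers were abundant in all 4 libraries: Adgre1, which encodes F4/80, had 603 and 542 TPM in Lum-labelled cells, against 551 and 557 TPM in wild-type cells. Itgam, which encodes CD11b, had 559 and 458 TPM against 421 and 429 TPM.

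The targeted gene went against its label. Lum had 2.88 TPM with CpG and 3.93 TPM with lumican and CpG in the Lum-labelled libraries, against 0.273 and 0.324 TPM in the wild-type libraries, so that both labelled knockouts lay above both wild types. The fitted log2 difference was 1.72 ± 0.19 (SE; limma adjusted p = 0.00385), a call that was lost without either Lum-labelled library and without the wild-type lumican-CpG library. Bgn, in contrast, was at 0.0325 and 0 TPM in the Lum-labelled libraries, against 0.961 and 1.52 TPM in wild type. The Bgn-labelled libraries, with CpG alone and with biglycan and CpG, had Lum at 0.0334 and 0 TPM and Bgn at 3.49 and 3.03 TPM. TPM of a whole transcript does not show whether a deleted part is present. Every direction below is that of the libraries as labelled.

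Genes were compared with limma on log2(TPM + 1), a scale that understates changes of low genes, in a fit over the 14 libraries given LPS or CpG. A gene was called at a Benjamini-Hochberg adjusted p under 0.05, two-sided, among 11519 genes whose mean reached 1 TPM. Between Lum-labelled and wild-type cells under CpG, 370 genes (3.21%) were called, 167 higher (1.45%) and 203 lower (1.76%). With median-of-ratios scaling the split was 213 higher and 131 lower. The median of all tested genes was -0.04 on the log2 scale. Differences were mostly small: 39 genes rose and 32 fell by more than 2-fold in the fit. The count rested on every library of the comparison. It was 48 without the Lum-labelled CpG library, 48 without the Lum-labelled lumican-CpG library, 105 without the wild-type CpG library and 51 without the wild-type lumican-CpG library. The other 3 CpG libraries enter the fit through the biglycan term, which moves both the estimate and its spread. Without 1 of them the count was 233 (Bgn-labelled, CpG), 229 (Bgn-labelled, biglycan and CpG) and 245 (wild type, biglycan and CpG). A core of 27 genes was called whichever of the 14 libraries was left out, and every other call was lost without at least 1 of them. The core was Hal, C1qa, C1qb, C1qc, Cxcl13, Ch25h, Nos2, Socs3, Serpinb2, Apoe, Pltp, Ms4a4a and Tmem176b, which rose, Cma1, Mcpt4, Tpsb2, Tpsab1, Cpa3, Gsta3, Gstm1, Gstm2, H2-M2, Il11ra1, Ifi27 and Pf4, which fell, and 2 gene models without a proper symbol; those outside the gene lists and the largest changes were chosen after their values were seen.

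**Figure D1:**
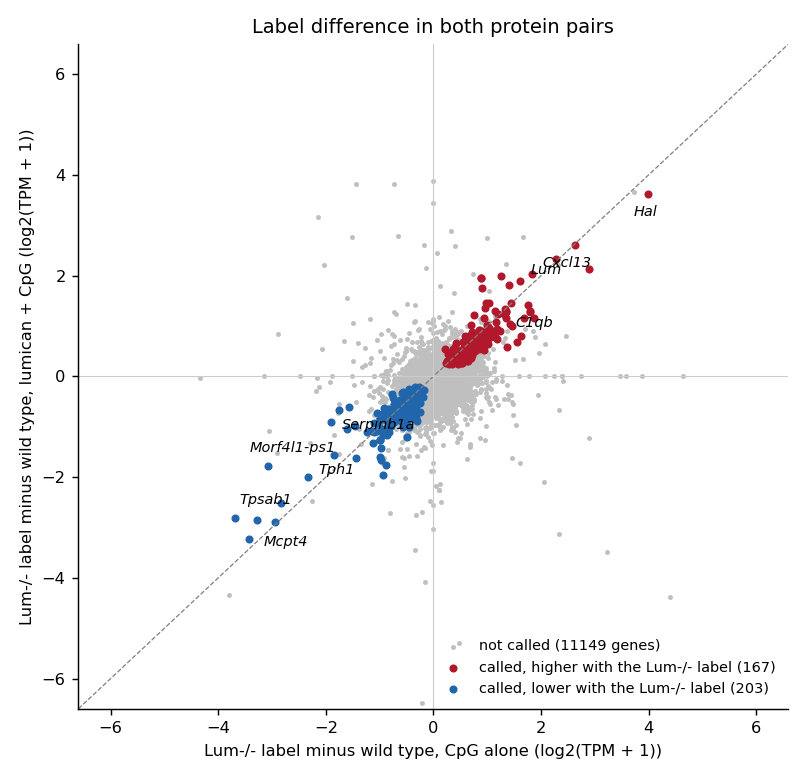
Each point is 1 of the 11519 tested genes, placed by the log2(TPM + 1) difference between Lum-labelled and wild-type cells with CpG alone (horizontal) and with lumican and CpG (vertical). Red points (167) were called higher and blue points (203) lower with the Lum-/- label; the dashed line marks equal differences.

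Hal showed the largest rise among genes of at least 10 TPM. It encodes histidine ammonia-lyase, the first enzyme of histidine breakdown, best known from liver and skin. It had 447 TPM with CpG and 359 TPM with lumican and CpG in Lum-labelled cells, against 27.1 and 28.2 TPM in wild-type cells. Every Lum-labelled library lay far above every wild-type one, and the log2 difference was 3.87 ± 0.13 (adjusted p = 1.81e-05). The gap stood under other conditions: with LPS, Hal had 88.2 and 92.3 TPM in Lum-labelled cells and 6.80 and 7.59 TPM in wild-type cells, and with lumican alone 258 TPM against 22.4 TPM. In Bgn-labelled cells it was at 1.46 TPM with CpG and 2.36 TPM with biglycan and CpG. Hal lies on chromosome 10 (GRCm38, 93488768 to 93519304, plus strand), the chromosome of Lum (97565128 to 97572703, plus strand), with its start 4.08 Mb before that of Lum. Within 10 Mb of Lum, 5 of 52 tested genes (9.62%) were called, against 3.21% of all. Besides Hal and Lum these were Elk3, an ETS transcription factor, which rose by 0.47, and Cdk17, a kinase, and Ndufa12, a complex I subunit, which fell by 0.70 and 0.73 on the log2 scale.

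The complement genes C1qa, C1qb and C1qc encode the 3 chains of C1q, which starts the classical complement pathway and is made largely by macrophages. C1qb had 536 and 382 TPM in Lum-labelled cells, against 213 and 151 TPM in wild-type cells. C1qc had 264 and 183 TPM against 102 and 74.6 TPM, and C1qa 438 and 278 TPM against 189 and 117 TPM. All 3 were lower with lumican than without it in both genotypes, yet no Lum-labelled value fell within the wild-type range. Their log2 differences were 1.34 ± 0.06, 1.33 ± 0.06 and 1.25 ± 0.07 (adjusted p at most 0.000131), and each was called whichever library was left out. Of 20 tested genes of complement and coagulation, 6 rose and none fell, with a median of 0.32. Serpinb2, an inhibitor of plasminogen activators, rose by 0.96 (1920 and 1746 TPM against 894 and 955 TPM) and C4b, a complement component, by 0.52. F13a1, the transglutaminase that cross-links fibrin, had 14.7 and 7.84 TPM in Lum-labelled cells and 3.88 and 2.94 TPM in wild-type cells, and rose by 1.45 ± 0.17.

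Genes of other macrophage lists moved both ways. Of 13 tested markers of large peritoneal macrophages 2 rose and 1 fell, and of 12 genes of alternative activation 3 rose and 1 fell. Cxcl13, the B-cell-attracting chemokine of resident peritoneal macrophages, had 804 and 401 TPM in Lum-labelled cells, against 226 and 97.6 TPM in wild-type cells, a log2 difference of 1.97 ± 0.12 (adjusted p = 0.000285). Arg1, the arginase of alternatively activated macrophages, had 67.2 and 24.3 TPM against 19.2 and 8.43 TPM (1.61 ± 0.20). For both genes the library with lumican was the lower one in each genotype. The Arg1 call was lost when any of the 4 compared libraries was left out. Fcgr4, an activating Fc receptor, rose by 1.31 ± 0.15, Aif1, which encodes the macrophage protein IBA1, by 1.19 ± 0.14, and Chil3, a chitinase-like secreted protein, by 1.12 ± 0.13. Apoe, the apolipoprotein that macrophages secrete in quantity, had 10448 and 10671 TPM against 6578 and 6224 TPM, and rose by 0.71 ± 0.05. Among scavenger and phagocytic receptors, 4 of 21 rose and 5 fell (4 and 2 after median-of-ratios scaling, and 0 or 1 and 0 to 2 with 1 of the 4 compared libraries left out). Those that rose were Fcgr4, Fcgr2b, Stab1 and Scarb1, and those that fell were Marco, Cd36, Timd4, Clec4n and Itgax. Timd4, the phosphatidylserine receptor of resident macrophages, had 95.4 and 95.7 TPM in Lum-labelled cells and 180 and 148 TPM in wild-type cells.

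**Figure D2:**
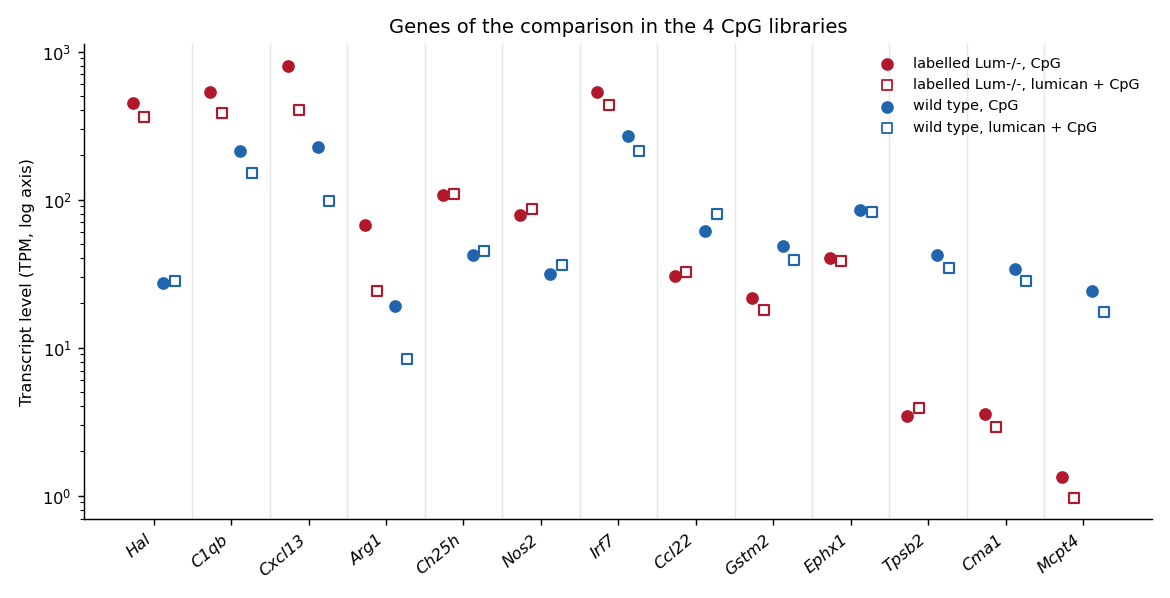
TPM (log axis) of 13 genes in the 4 CpG libraries, Lum-labelled in red and wild type in blue, circles for CpG alone and open squares for lumican and CpG; each point is 1 library. For Hal the red points (447 and 359 TPM) lie over the blue ones (27.1 and 28.2 TPM), and for the mast cell proteases Tpsb2, Cma1 and Mcpt4 they lie far below.

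Most genes of the CpG-sensing pathway were not called. Tlr9 had 3.57 and 2.99 TPM in Lum-labelled cells, against 4.07 and 4.95 TPM in wild-type cells, and was not called (-0.40 ± 0.17, adjusted p = 0.278). Unc93b1, which carries TLR9 to endosomes, differed by 0.12 ± 0.06 (adjusted p = 0.316), and the transcription factor gene Irf5 by 0.03 ± 0.07. Of 25 tested pathway genes, 3 rose and none fell, with a median of 0.06. These were Myd88 (127 and 123 TPM against 104 and 97.0 TPM; 0.33 ± 0.06, adjusted p = 0.0267), Lgmn, a lysosomal protease (0.28 ± 0.06), and Irf7, the interferon-inducible factor that drives interferon genes and is also counted among the interferon-stimulated genes below. None of the 3 was called when any of the 4 compared libraries was left out. Cd14, the co-receptor that hands LPS to TLR4 and also takes part in CpG responses, had 946 and 1077 TPM in Lum-labelled cells and 696 and 864 TPM in wild-type cells, and rose by 0.36 ± 0.06 (adjusted p = 0.0237). It was the only called gene of 15 other Toll-like receptor and LPS receptor genes. The Cd14 call was also lost when any of the 4 compared libraries was left out. Tlr4 differed by 0.07 ± 0.07. Cav1, which encodes caveolin-1, had 403 and 424 TPM against 446 and 553 TPM and was not called (-0.29 ± 0.08, adjusted p = 0.123), and none of the 18 tested caveolin, flotillin and clathrin genes was.

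Inflammatory outputs moved both ways. The list of 29 tested cytokine and chemokine genes also holds the enzyme gene Nos2. Of the 29, 5 rose and 3 fell, with a median of 0.10. Nos2, the inducible nitric oxide synthase, had 79.0 and 86.1 TPM in Lum-labelled cells, against 31.3 and 35.9 TPM in wild-type cells, and rose by 1.28 ± 0.10 (adjusted p = 0.000632), a call kept whichever library was left out. Ccl5, a T-cell and monocyte chemokine, had 664 and 709 TPM against 421 and 470 TPM (0.66 ± 0.07). Ccl2, the main monocyte chemokine, rose by 0.68 ± 0.13, Il27, which encodes the p28 subunit of interleukin-27, by 0.50 ± 0.10 and Tnfsf9, the 4-1BB ligand, by 0.53 ± 0.10. The genes that fell were chemokines. Ccl22, a ligand of CCR4, had 30.7 and 32.6 TPM in Lum-labelled cells, against 61.7 and 79.5 TPM in wild-type cells (-1.11 ± 0.11, adjusted p = 0.00232). The neutrophil chemokine Cxcl1 had 88.9 and 123 TPM against 142 and 190 TPM (-0.68 ± 0.08), and Cxcl3 fell by 0.51 ± 0.10 on the log2 scale. With 1 of the 4 compared libraries left out, 1 or 2 genes of the list were called higher and 0 to 2 lower.

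The classic cytokines were not called. Tnf had 331 and 381 TPM in Lum-labelled cells and 339 and 413 TPM in wild-type cells (-0.07 ± 0.09, adjusted p = 0.766). Il6 was low after CpG, at 10.7 and 13.7 TPM against 15.8 and 15.3 TPM (-0.29 ± 0.11, adjusted p = 0.22). Il10 differed by 0.20 ± 0.11 and Il12b by -0.46 ± 0.22. Among 21 genes of NF-kB subunits and feedback, Socs3 was the only call. This inhibitor of cytokine receptor signalling had 212 and 197 TPM in Lum-labelled cells and 127 and 117 TPM in wild-type cells (0.74 ± 0.06, adjusted p = 0.00068).

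Ch25h makes 25-hydroxycholesterol, an oxysterol that restrains sterol synthesis. It had 108 and 109 TPM in Lum-labelled cells, against 42.5 and 44.8 TPM in wild-type cells, and rose by 1.34 ± 0.09 (adjusted p = 0.000447). The cholesterol synthesis genes stood higher as a group: 10 of 24 rose and none fell, with a median of 0.45. Both Lum-labelled libraries lay above both wild-type ones for 21 of 24, and for 1957 of all 11519 tested genes. Hmgcs1, which makes HMG-CoA, had 133 and 99.7 TPM in Lum-labelled cells and 89.4 and 77.8 TPM in wild-type cells (0.46 ± 0.09). Idi1, an isopentenyl diphosphate isomerase, had 119 and 107 TPM against 84.0 and 75.0 TPM (0.48 ± 0.07). Pmvk, a kinase of the mevalonate pathway, showed the largest of these rises (0.69 ± 0.08, adjusted p = 0.00409). Sqle, Fdps, Cyp51, Sc5d and Msmo1 were also called. The calls were fragile, whereas the median was not. No member was called without the Lum-labelled CpG library, without the Lum-labelled lumican-CpG library or without the wild-type lumican-CpG library, 1 was without the wild-type CpG library and 3 were without any one of the other 3 CpG libraries, while the median lay between 0.42 and 0.46 across all leave-outs. Over the 8 LPS or CpG libraries without Bgn label or biglycan, 3 members were called. Of 14 genes of cholesterol efflux and oxysterol signalling, Ch25h, Apoe and the LXR receptor gene Nr1h3 rose, while the sterol exporter gene Abcg1 (32.8 and 37.6 TPM against 60.1 and 62.8 TPM) and Mylip, a ubiquitin ligase gene, fell.

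Sterol synthesis genes are classic targets of SREBP transcription factors, so the promoters of the first-listed member, Hmgcs1, and of Idi1 are shown, from RefSeq (GRCm38.p6, 300 bases around each gene's start, 5′ to 3′ on the gene's strand). Capitals mark matches to TCACNCCAC, a sterol element core, searched on both strands.
Hmgcs1: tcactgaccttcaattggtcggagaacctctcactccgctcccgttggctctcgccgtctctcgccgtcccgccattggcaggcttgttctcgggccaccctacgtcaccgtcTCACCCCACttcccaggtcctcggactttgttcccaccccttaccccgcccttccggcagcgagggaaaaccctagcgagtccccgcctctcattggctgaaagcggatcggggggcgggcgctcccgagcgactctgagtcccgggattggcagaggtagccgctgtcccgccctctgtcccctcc
Idi1: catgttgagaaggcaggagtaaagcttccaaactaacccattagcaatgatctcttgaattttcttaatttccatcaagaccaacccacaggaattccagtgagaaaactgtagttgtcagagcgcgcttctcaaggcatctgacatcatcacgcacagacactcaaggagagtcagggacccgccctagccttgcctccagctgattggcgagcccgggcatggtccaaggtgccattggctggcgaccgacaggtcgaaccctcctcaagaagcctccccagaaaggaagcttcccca
The Hmgcs1 window (chr13:119690101-119690400, plus strand) held 1 match, at base 114, and the Idi1 window (chr13:8885356-8885655, plus strand) none. Of all 32851 promoters 1.24% held the motif, and Hmgcs1 was the 1 holder among 17 tested list genes with a promoter in RefSeq's table.

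Type I interferon-stimulated genes encode antiviral effectors and their regulators. Of 40 tested, 4 rose and none fell: Slfn4, Ifi44, Irf7 and Ifitm3. Irf7 had 537 and 433 TPM in Lum-labelled cells, against 267 and 213 TPM in wild-type cells (1.17 ± 0.23, adjusted p = 0.0347). Its difference was 1.00 in the pair without protein and 1.02 in the pair with lumican. The fitted value also draws on the wild-type biglycan-CpG library, with 119 TPM. Ifitm3, a membrane protein that blocks virus entry, had 2092 and 1878 TPM against 1341 and 1154 TPM (0.73 ± 0.09, adjusted p = 0.00526). The fitted difference was above 0 for all 40 (lowest 0.12), with a median of 0.55, but 36 did not pass the test. That fit also draws on CpG libraries outside the comparison, so the sign of a member can differ from that of its pairs. In the pair without protein 39 were above 0, in the pair with lumican 38, and in both pairs 37. Of all 11519 tested genes, 4813 had a fitted difference above 0 and 2709 were above 0 in both pairs. Isg15, a ubiquitin-like modifier, had 410 and 322 TPM in Lum-labelled cells and 298 and 214 TPM in wild-type cells (adjusted p = 0.191). Rsad2, which encodes viperin, had 75.7 and 48.3 TPM against 74.6 and 55.9 TPM and was nearly level. Both the count and the median depended on which libraries entered the fit. With the Bgn-labelled CpG, the Bgn-labelled biglycan-CpG or the wild-type biglycan-CpG library left out, 12 members were called and the median was 0.37, nearer to those of the pairs without protein (0.43) and with lumican (0.33). The fit over 8 libraries, added after the data were seen, called 14 members with a median of 0.37, and the fit of the 4 compared libraries alone called 16. Without the Lum-labelled CpG library no member was called (median 0.33), and the same held without the Lum-labelled or the wild-type lumican-CpG library (median 0.69 for each). Without the wild-type CpG library 1 was (median 0.72).

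Promoters of Ifitm3, the member with the lowest adjusted p, and of Irf7 are shown from the same source, with capitals marking matches to GAAA, any 2 bases and GAAA again, the core of the interferon-stimulated response element, searched on both strands.
Ifitm3: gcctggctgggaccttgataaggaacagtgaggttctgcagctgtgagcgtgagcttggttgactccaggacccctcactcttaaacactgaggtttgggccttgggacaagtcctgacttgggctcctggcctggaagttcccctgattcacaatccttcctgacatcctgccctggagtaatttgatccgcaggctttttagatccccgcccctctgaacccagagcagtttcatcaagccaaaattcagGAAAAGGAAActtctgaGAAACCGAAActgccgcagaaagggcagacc
Irf7: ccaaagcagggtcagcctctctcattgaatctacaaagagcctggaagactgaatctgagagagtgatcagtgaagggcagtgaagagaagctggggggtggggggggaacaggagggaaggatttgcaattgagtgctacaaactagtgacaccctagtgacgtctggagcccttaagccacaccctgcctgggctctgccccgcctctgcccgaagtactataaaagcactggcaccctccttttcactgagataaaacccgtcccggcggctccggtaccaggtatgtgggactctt
The Ifitm3 window (chr7:141010695-141010994, minus strand) held 2 matches, at bases 253 and 270, and the Irf7 window (chr7:141266375-141266674, minus strand) none. The motif was present in 3.44% of all promoters and in 17 of the 30 tested list genes that had a promoter in the table, such as Isg15, Ifit1 and Rsad2. Of the 4 called members, 1 held it, Ifitm3.

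**Figure D3:**
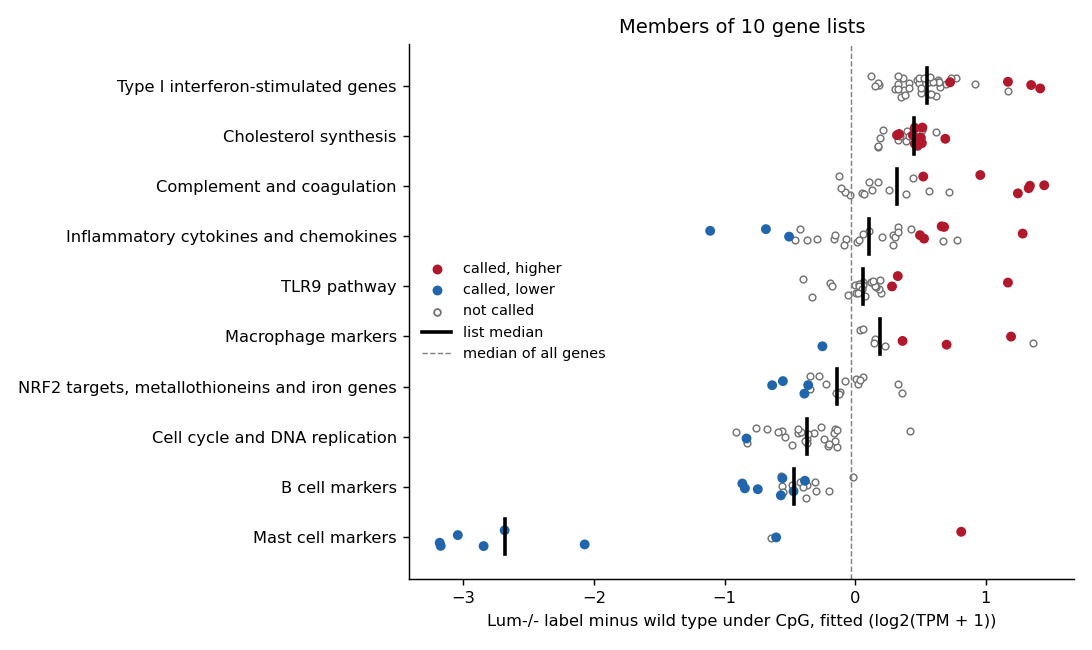
Fitted log2(TPM + 1) differences between Lum-labelled and wild-type cells under CpG for the tested members of 10 gene lists; filled points were called (red higher, blue lower), open points were not, thick bars are list medians and the dashed line is the median of all genes (-0.04). Interferon-stimulated (median 0.55) and cholesterol synthesis genes (0.45) lie to the right, B cell (-0.47) and mast cell markers (-2.68) to the left.

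The 5 largest falls among genes of at least 10 TPM were all of mast cell markers. Cma1, the chymase of connective tissue mast cells, had 3.55 and 2.89 TPM in Lum-labelled cells, against 34.2 and 28 TPM in wild-type cells, a log2 difference of -2.85 ± 0.19 (adjusted p = 0.000447). The chymase gene Mcpt4 had 1.34 and 0.967 TPM against 24.2 and 17.4 TPM (-3.18 ± 0.28). The tryptase gene Tpsb2 had 3.47 and 3.89 TPM against 42.4 and 34.5 TPM (-3.04 ± 0.23). Tpsab1, another tryptase, fell by 3.17 ± 0.23 and Cpa3, the mast cell carboxypeptidase, by 2.68 ± 0.19 on the log2 scale. These 5 were called whichever library was left out. Of 9 tested mast cell markers 7 fell, the others in this direction being Tph1 and Hdc, which make serotonin and histamine; Cyp11a1, a steroid-synthesis enzyme, rose and Kit was not called. Summed TPM over all 16 listed markers was 27.6 and 29 in Lum-labelled cells and 162 and 137 in wild-type cells. In bulk RNA, fewer cells of a type and less RNA per cell cannot be told apart.

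Some B cell markers were lower. Of 19 tested, 7 fell, among them Ms4a1, Cd79b, Fcrla, Igkc, Iglc2 and Bhlhe41, and none rose, with a median of -0.47. No listed member was at 0 in both libraries of a genotype. Summed TPM of the B cell markers was 1346 and 1268 in Lum-labelled cells and 1681 and 1892 in wild-type cells. None of the 7 was called without either Lum-labelled library or without the wild-type lumican-CpG library, and 1 was without the wild-type CpG library. The immunoglobulin variable segments Ighv6-3, Ighv1-22 and Igkv8-24 were among the 15 largest falls; such segments resemble one another, so reads can be shared between them and their values are uncertain. Pf4, a platelet and macrophage chemokine, had 1073 and 1172 TPM against 1781 and 1710 TPM (-0.66 ± 0.06, adjusted p = 0.00156). The part of these cell types in the other falls was not tested.

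Among 10 macrophage markers, 3 rose, Aif1 and Cd14 among them, Cd68 fell (-0.25 ± 0.04) and 6 were not called. After median-of-ratios scaling or quantile normalization, no macrophage marker was called lower. Summed TPM of the 10 markers was 35099 and 35587 in Lum-labelled cells and 35079 and 33482 in wild-type cells. Gata6 had 4.47 and 4.04 TPM in Lum-labelled cells, against 4.46 and 4.81 TPM in wild-type cells, and was not called. Neutrophil markers gave 1 rise (Csf3r) and 1 fall (S100a8) of 4 tested, and no T cell, natural killer cell, fibroblast or mesothelial marker was called (4 and 2 tested).

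The other genes among the 15 largest falls had varied functions. Gstm2, a glutathione transferase, had 21.5 and 18.1 TPM in Lum-labelled cells, against 48.3 and 39.3 TPM in wild-type cells (-1.13 ± 0.08, adjusted p = 0.000562), and was called whichever library was left out. Ephx1, the microsomal epoxide hydrolase, had 40.2 and 38.5 TPM against 85.1 and 83.0 TPM (-1.10 ± 0.11). Atp6v0d2, a subunit of the vacuolar proton pump, had 10.3 and 8.86 TPM against 23.6 and 23.7 TPM (-1.23 ± 0.14). For Ephx1 and Atp6v0d2 the libraries with CpG alone and with lumican and CpG lay close together in each genotype. Lum-labelled and wild-type values did not overlap, as for 366 of the 370 called genes. Of all 11519 tested genes, 3125 had both Lum-labelled libraries below both wild-type ones and 1957 had both above, so values did not overlap for many genes without a call. Neither gene kept its call in every fit that left out 1 of the 4 compared libraries. Serpinb1a, an inhibitor of neutrophil proteases, fell by 1.44 ± 0.22 and Tdg, a thymine DNA glycosylase, by 1.05 ± 0.11 on the log2 scale. Morf4l1-ps1 fell by 2.63 ± 0.42, but it is a pseudogene that can share reads with its parent gene. Of 18 tested genes of the NRF2 antioxidant response, metallothioneins and iron handling, 4 fell and none rose (median -0.14): Nqo1, a quinone reductase (48.5 and 49.5 TPM against 78.0 and 71.3 TPM), Srxn1, Prdx1 and the catalase gene Cat. After median-of-ratios scaling 1 was called lower, and with 1 of the 4 compared libraries left out 0 or 1 was. Hmox1, the heme oxygenase gene of the same list, had 1802 and 1919 TPM against 1962 and 2022 TPM.

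Matrix and growth genes showed smaller shifts. Of 18 tested matrix genes, Tgfbi, Spp1, Sparc and Timp1 rose and Mmp12 fell. Tgfbi, a secreted adhesion protein, had 643 and 385 TPM in Lum-labelled cells and 322 and 225 TPM in wild-type cells (0.87 ± 0.08). Of 8 tested small leucine-rich proteoglycan, syndecan and CD44 genes, Lum and Sdc4, a heparan sulfate proteoglycan, rose. Among 27 cell cycle genes only Cdk1 was called, lower (5.77 and 5.06 TPM against 10.6 and 9.88 TPM, -0.84 ± 0.16). The list median was -0.37, and 24 members were below 0 in both pairs, as were 3946 of all 11519 tested genes. No listed MHC class I (15), MHC class II (11), heat shock (10), unfolded protein response (19), nuclear oxidative phosphorylation (20) or ribosomal protein gene (21) was called. Ndufa12 and H2-M2 lie outside these lists and were called lower. In both pairs 14 MHC class I members were above 0, as were 2709 of all tested genes. Below 0 in both pairs were 18 nuclear oxidative phosphorylation and 8 heat shock members, with 0 and 2 above 0 in both. Of 13 mitochondrially encoded transcripts 1 was called, mt-Nd3, which was lower, and 11 were below 0 in both pairs.

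LPS, which acts through TLR4, gave the same label comparison in libraries that the CpG comparison does not use. There 1014 genes (8.8%) were called, 260 higher (2.26%) and 754 lower (6.55%). The split was 511 higher and 375 lower after median-of-ratios scaling, and 307 higher and 334 lower after quantile normalization. The count was 146 without the Lum-labelled LPS library, 224 without the Lum-labelled lumican-LPS library, 579 without the wild-type LPS library and 221 without the wild-type lumican-LPS library. Both comparisons come from one fit and share its estimate of the spread. The 260/230 ratio was 3.36 in the Lum-labelled LPS library and 0.2 in the Lum-labelled lumican-LPS library, against 4.91 and 3.65 in wild type. Its part in the LPS results was not tested. Of the 370 genes called under CpG, 239 (64.6%) were called in the same direction under LPS, which is 23.6% of the LPS calls, and 1 was called in the opposite direction. The sign was the same under LPS for 352 (95.1%), against 68.1% of all tested genes. Hal (3.46 under LPS), Cxcl13 (2.05), the C1q genes (1.14 to 1.24), Cma1 (-2.85) and Gstm2 (-1.32) differed under both stimuli.

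A test of the difference itself, the label difference under CpG minus that under LPS, called no gene in limma. At an unadjusted p under 0.05 there were 990. The lowest adjusted p was 0.0873, for Fabp7, Ctla2a and Mmp13 among genes with a proper symbol. Fabp7, a fatty acid-binding protein, had 72.1 and 65.4 TPM in Lum-labelled and 73.2 and 65.4 TPM in wild-type cells under CpG, and 237 and 235 TPM against 137 and 133 TPM under LPS. Nos2 had the larger difference under CpG, with 480 and 278 TPM in Lum-labelled cells and 440 and 204 TPM in wild-type cells under LPS; its difference of differences was 0.95 ± 0.14 (adjusted p = 0.21). Hdc, whose product makes histamine, was 0.61 lower under CpG and 0.37 higher under LPS with the Lum-/- label (difference of -0.98 ± 0.15, adjusted p = 0.21).

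**Figure D4:**
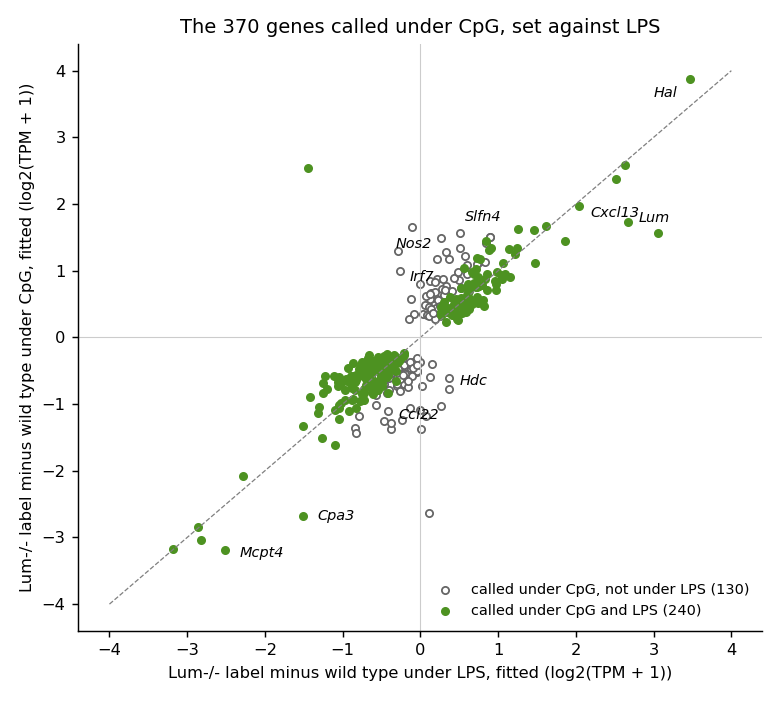
Fitted log2(TPM + 1) differences between Lum-labelled and wild-type cells for the 370 genes called under CpG, under LPS (horizontal) and CpG (vertical). Filled points (240) were called under both stimuli and open points (130) under CpG and not under LPS; most lie in the lower left and upper right, and the dashed line marks equal differences.

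The 40 interferon-stimulated genes gave no call under LPS, where the median was 0.05, and -0.12 in the pair without protein against 0.18 in the pair with lumican. With lumican alone, 1 library a genotype, 40 of 40 were higher with the Lum-/- label (median 0.63), as were 6168 of all 11519 tested genes. Irf7 had 340 TPM in Lum-labelled cells against 143 TPM in wild type in that pair. Cholesterol synthesis genes gave 12 rises of 24 under LPS (median 0.39) and a median of 0.42 in the pair with lumican alone. The difference between the stimuli was not called for any member of either list.

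**Figure D5:**
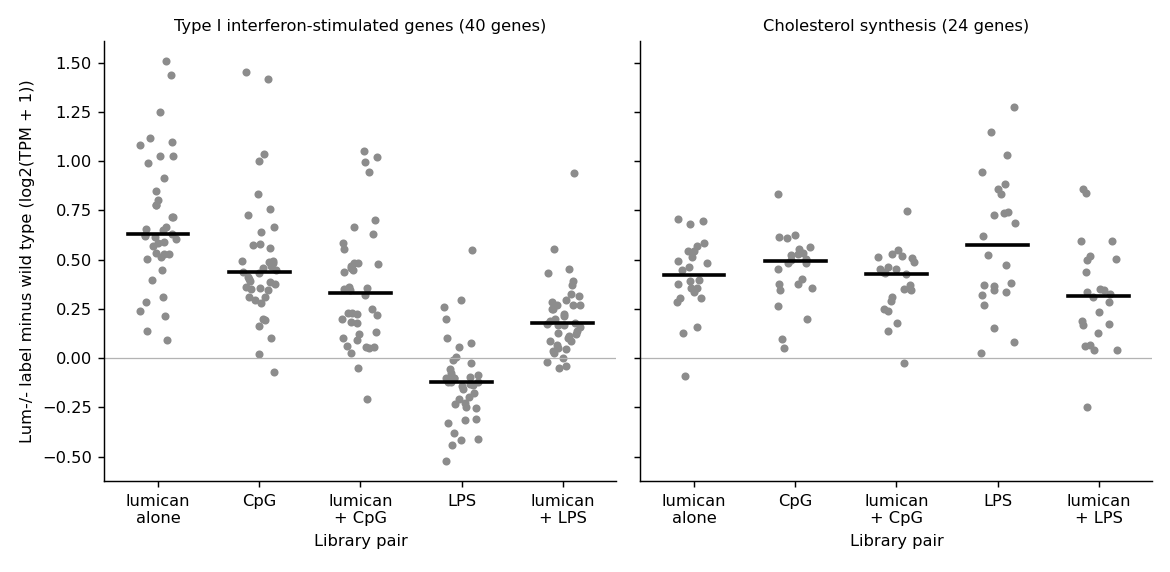
Log2(TPM + 1) differences between the Lum-labelled and the wild-type library in 5 library pairs for 40 interferon-stimulated and 24 cholesterol synthesis genes; each point is a gene and each bar a median. The interferon-stimulated medians are 0.63, 0.43, 0.33, -0.12 and 0.18 from left to right, while the cholesterol synthesis medians lie between 0.32 and 0.57 in all 5 pairs.

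Bgn-labelled cells, with CpG alone or with biglycan and CpG, were compared with wild type in the same fit. Both comparisons subtract the same fitted wild-type CpG mean, to which the wild-type libraries with CpG alone, lumican and biglycan all contribute. The wild-type partner with protein had biglycan in place of lumican. The values are thus only set side by side. That comparison called 254 genes (2.21%), 67 higher (0.582%) and 187 lower (1.62%), and the count was 71 without the Bgn-labelled CpG library and 104 without the wild-type CpG library. Hal differed from wild type by 3.87 in Lum-labelled and -3.39 in Bgn-labelled cells, Nos2 by 1.28 and -1.47, and Ch25h by 1.34 and -2.23. The interferon-stimulated list had medians of 0.55 and -0.76, and 10 of its 40 members fell in Bgn-labelled cells. Summed TPM of that list in wild-type cells was 6058 with CpG, 5151 with lumican and CpG and 3253 with biglycan and CpG. Cxcl13 was higher in both (1.97 and 1.57) and Cma1 lower in both (-2.85 and -3.73). The B cell list had medians of -0.47 and 0.12, and Gstm2 differed by -1.13 and -0.30, the value in Bgn-labelled cells not being called.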

How the data were processed

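RNA was sequenced from 21 libraries of CD11b+ peritoneal cells. The submitters' processing notes name kallisto 0.44.0, bcl2fastq 1.8.4 and GRCm38. As deposited by the authors, values are TPM per transcript, scaled within a library. A signal column of row sums, which the authors deposited beside them, was not used. TPM was summed to 23545 genes, named by the table or by GENCODE vM21, and 1350 transcripts without a gene (5350 to 5683 TPM in the 4 libraries compared) were left out. Depth was estimated from low TPM values, of which 77.3% to 82.4% lay within 0.2 of a whole read in these libraries (40% if evenly spread), with an assumed fragment length of 200 bases. No count test was used.

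limma 3.58.1 in R 4.3.3 was run on log2(TPM + 1) for genes whose mean reached 1 TPM over the 14 libraries given LPS or CpG. The model had a mean per genotype and stimulus and lumican and biglycan terms per stimulus, with 4 residual degrees of freedom, a trend in eBayes and Benjamini-Hochberg adjustment. The 7 unstimulated libraries were left out because 3 stand apart from their labels. Code was tested on simulated data. Named genes are a fixed set of 15, the 15 called genes with the largest change each way (at least 10 TPM, same sign in both pairs) and members of gene lists that were called, come first in their list or have its largest differences. The comparison, the lists and the rules were chosen with earlier results of these data known. Promoters are from RefSeq. Alternatives changed the pseudocount, filter, scaling, transcript summary, eBayes settings, protein terms and libraries. Tables were made in Python 3.11.15 with pandas 2.3.3. Some called list members are not reported here.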

Additional observations from a re-analysis of the deposited data

How the results depend on the processing

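The count of genes called between Lum-labelled and wild-type cells under CpG (370) was 114 without a filter on low values, 222 with the most abundant transcript per gene, 168 with eBayes without a trend, 10 with all 21 libraries and 48 to 348 with 1 library left out. With 18 libraries, without the 3 that stand apart, it was 370, and 364 genes were shared. For LPS (1014) these settings gave 406 without a filter, 641 with quantile normalization, 583 without a trend, 131 with all 21 libraries, 644 with the 8 libraries without Bgn label or biglycan and 146 to 842 with 1 library left out. For Bgn-labelled against wild-type cells under CpG (254) they gave 113 without a filter, 163 with the most abundant transcript, 129 without a trend, 10 with all 21 libraries and 71 to 222 with 1 library left out. The test of CpG against LPS (0) gave 3 gene models without a filter, 1 gene with quantile normalization (Mmp13), 1 without a protein term (Fabp7), 2 with protein terms shared by both stimuli (Fabp7 and Mmp13) and 0 to 4 with 1 library left out (Igkj5 and 3 gene models without either lumican-LPS library). The cause of these shifts was not tested. Irf5, never called, changed sign without a protein term (-0.017), with shared protein terms (-0.0095) and without the wild-type CpG library (-0.0061, in a range of -0.0061 to 0.0425 with 1 library left out). For 114 named genes over 30 settings, 2462 values kept direction and side of the threshold, and 948 kept direction and lost the call.

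No paired analysis was possible because each group has 1 library and no label ties wells to animals; the protein pairing is a treatment and is part of the model. Depth is an estimate, and 2 libraries a genotype limit precision. Both Lum-labelled libraries go against the knockout label.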

Other observations

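Some gene families were looked at after their values were seen, so their counts are descriptions, to be read against 3.21% of all genes called. Glutathione transferases, which conjugate glutathione to reactive compounds, had 5 members lower and none higher of 18 tested in Lum-labelled cells under CpG, with a median of -0.32. Gstm1 had 195 and 217 TPM in Lum-labelled cells, against 381 and 398 TPM in wild-type cells (-0.94 ± 0.06, limma adjusted p = 0.000383), and Gsta3 had 77.2 and 90.4 TPM against 160 and 150 TPM. The others called were Gstm2, Gsto1 and Mgst1. Under LPS 8 of the 18 were lower, where 6.55% of all genes were. Members of this family resemble one another, so reads can be shared among them. Of 10 tested genes of the MS4A family of membrane proteins, 5 rose: Ms4a4a (628 and 553 TPM in Lum-labelled cells, against 337 and 334 TPM in wild-type cells), Ms4a6b, Ms4a6c, Ms4a6d and Ms4a7. The B cell member Ms4a1, which encodes CD20, fell. Of 72 tested immunoglobulin kappa variable segments 11 fell and 2 rose, and of 68 heavy variable segments 7 fell and none rose.

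Among the 27 genes called whichever library was left out, several lie outside the gene lists and were chosen after their values were seen. Pltp, the phospholipid transfer protein, had 308 and 279 TPM in Lum-labelled cells, against 177 and 163 TPM in wild-type cells (0.78 ± 0.06). Tmem176b had 116 and 120 TPM against 61.9 and 63.3 TPM (0.91 ± 0.07). H2-M2, a nonclassical MHC class I gene, had 48.7 and 59.8 TPM in Lum-labelled cells and 97.7 and 126 TPM in wild-type cells (-1.05 ± 0.08), Il11ra1, a chain of the interleukin-11 receptor, fell by 0.69 ± 0.06 and Ifi27, an interferon-inducible gene outside the list, by 0.69 ± 0.06 on the log2 scale. The 10 genes that the fit of all 21 libraries called were Apoe, Pltp and Nos2, which rose, and Dynlt1b, Ephx1, Gstm1, Lpl, Ncoa4, Prkcb and Vmn2r26, which fell. All 10 were also called in the fit of 14 libraries. Lpl, the lipoprotein lipase, had 247 and 260 TPM in Lum-labelled cells, against 419 and 438 TPM in wild-type cells.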
